A study of Cricetulus griseus with 5 samples.

Results

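The Rab small GTPases were examined on 5 two-colour microarrays on which RNA of A23 was set against itself. A23 is a line of Chinese hamster fibroblasts that lack thymidine kinase. Members were the probes whose single gene symbol in the platform's annotation was Rab followed by a number and at most a letter and a digit, so that the GTPases themselves were taken and their effectors were not. The rule found 59 probes for 56 genes, of 20868 probes and 16504 named genes in all, and it used no measured value. All 5 arrays form 1 group, A23 self-self, with Cy5-labelled A23 RNA in channel 1, Cy3-labelled A23 RNA in channel 2, and 20 µg of total RNA per labelling. No treatment, genotype or time point differs between them, and since no label ties an array to a culture, an extract or a labelling of its own, the spread between them may be technical. The series is a control for the power to detect cis ceQTLs, where the copy number of a gene's own locus alters its expression, in radiation hybrid cells made with A23 as recipient.

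Rab GTPases are molecular switches that give membrane compartments their identity. In the GTP-bound form they sit on a membrane and recruit effectors such as tethers and motor adaptors, and in the GDP-bound form they are held in the cytosol by a dissociation inhibitor. Some members work in nearly every cell, in transport between the endoplasmic reticulum, Golgi, endosomes and lysosomes, while others serve regulated secretion, polarised epithelia, neurons, melanosomes or immune cells.

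The members were therefore grouped by textbook role, with earlier results of these data known. The ubiquitous class held 21 genes, the class of secretory or tissue-restricted genes (restricted below) 21, and 14 genes were put in neither class (unclassed). The array names mouse genes and the RNA is hamster, and 52 of the 56 symbols were also found in the hamster RefSeq gene table of assembly CriGri-PICRH-1.0. The symbols Rab3d, Rab7, Rab9 and Rab39 were not matched by name.

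Each value is the deposited log ratio of the channels, read as log10, an assumption that the values do not settle. The log base is not stated, nor is the channel that was divided by the other, so folds are given under the log10 reading, and a sign is only that of the deposited value. A ratio of RNA against itself holds no expression level, so neither the abundance of a Rab transcript nor the fibroblast identity of the line could be checked from markers. The design implies a ratio of 0 for every gene, and the results below say which Rab genes departed from it and how far each one varied between arrays. No filter on low values was applied, and all 59 probes entered the tests.

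Rab ratios lay close to 0, with about equal numbers on either side. The median of the mean log ratios was 0.00125 over the 56 Rab genes and 0.00311 over all named genes, and 28 Rab genes had a positive and 28 a negative mean. Means ran from -0.252 for Rab25 to 0.126 for Rab29. The between-array SD of a Rab gene had a median of 0.0618, against 0.0563 over all named genes. Within an array the median over the 59 Rab probes ran from -0.0159 on replicate 4 to 0 on replicates 2 and 5. Probes beyond 1.5-fold numbered 5, 12, 3, 5 and 11 on replicates 1 to 5, which is 12.2% ± 6.82 of the Rab probes (SD, n = 5 arrays), against 11.7% ± 4.43 of all probes. Replicate 2 was also the widest array over all probes, with a within-array SD of 0.174 against 0.119 to 0.127 on the others.

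**Figure D1:**
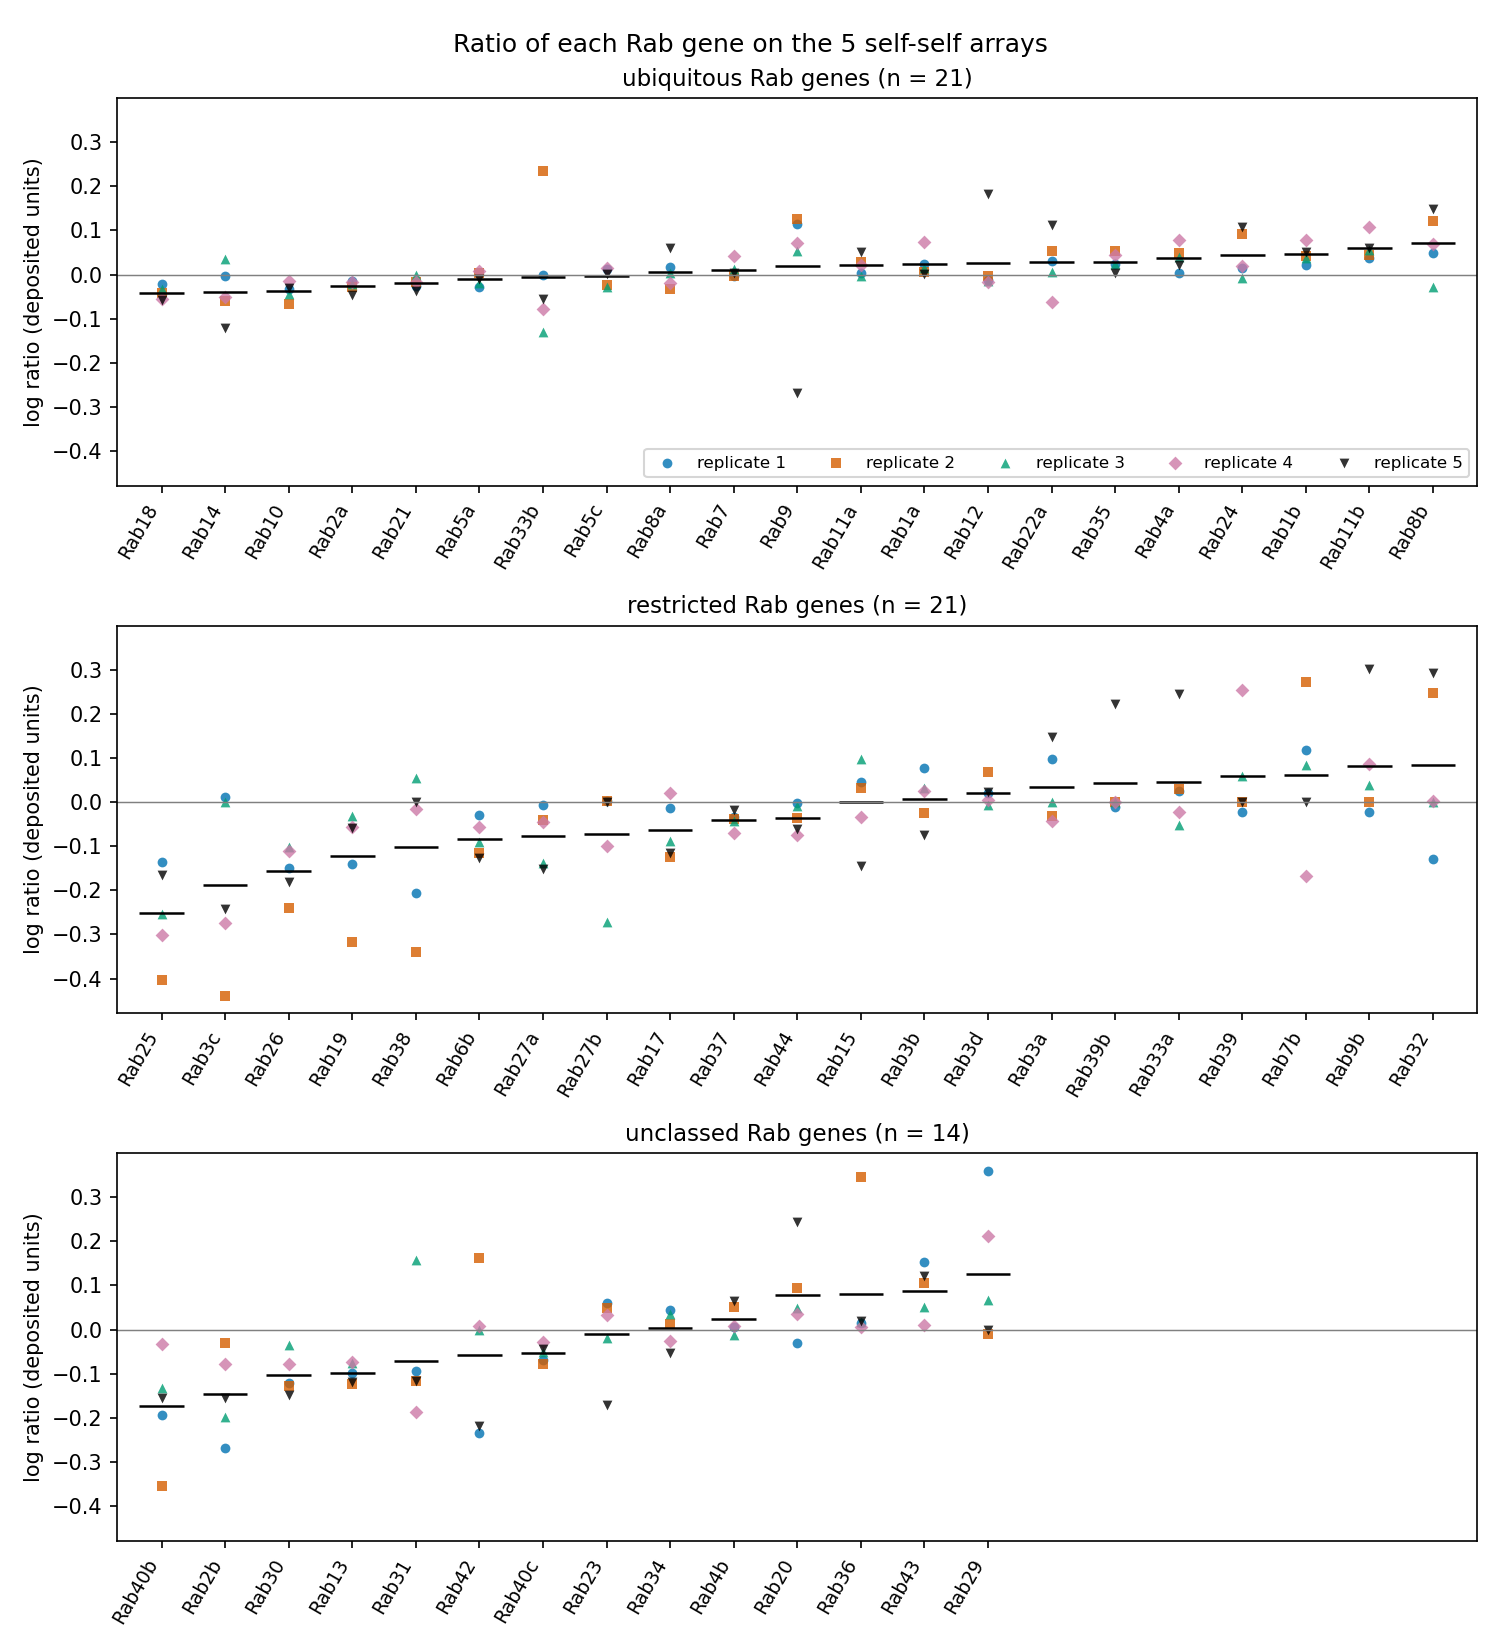
Log ratio (deposited units, vertical axis) of each of the 56 Rab genes on each of the 5 arrays, in 3 panels for ubiquitous, restricted and unclassed genes, ordered by mean. Symbols are arrays, black bars are means over 5 arrays, and probes of 1 gene were averaged. Points of most ubiquitous genes lie close together near 0, while those of Rab25, Rab3c, Rab32 and Rab29 spread widely.

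Rab13 and Rab26 were the Rab genes that passed the test against a ratio of 0, each with a negative ratio. With limma and p-values adjusted by Benjamini-Hochberg over all genes, 2 of 56 Rab genes passed an adjusted p of 0.05, against 2.45% of all 16504 genes. Both were negative, and a negative call was made for 1.40% of all genes. Over probes the count was 2 of 59, against 3.42% of all 20868 probes. Both shares of Rab members are near those backgrounds.

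Rab13 (feature 16943), which in epithelial cells carries junction proteins to the cell surface, had log ratios of -0.0990, -0.123, -0.0752, -0.0734 and -0.118 on replicates 1 to 5. All 5 arrays were negative and lay close together. The mean was -0.0976 ± 0.0231 (SD, n = 5), 1.25-fold if log10, with a limma adjusted p of 0.0337 over all probes.

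Rab26 (feature 8647), a member of the regulated secretory class found on secretory granules, had -0.150, -0.240, -0.101, -0.111 and -0.182. Replicate 2 was the farthest from 0, and no array was positive. The mean was -0.157 ± 0.0564 (SD, n = 5), 1.43-fold if log10, with a limma adjusted p of 0.0476 over all probes. Both calls rested on having 5 arrays. Leaving out any 1 array gave limma adjusted p-values of 0.0779 to 0.126 for Rab13 and 0.0910 to 0.138 for Rab26, with means that stayed between -0.104 and -0.0914 and between -0.171 and -0.136.

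Rab25, an epithelial relative of Rab11 that acts in apical recycling, had the lowest mean of all Rab genes. Its log ratios were -0.135, -0.402, -0.253, -0.302 and -0.166. All arrays were negative, and the spread was large, with a mean of -0.252 ± 0.107 (SD, n = 5), 1.79-fold if log10. It missed the threshold with a limma adjusted p of 0.0534 over all probes. Over probes it passed under 6 alternatives, scaling and quantile normalization among them, with limma adjusted p-values of 0.0325 to 0.0484. Over genes it also passed with the tightest probe of each gene. With an array left out the adjusted p in limma was 0.0980 to 0.159 over probes.

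More Rab genes kept 1 sign on every array than were called. Without adjustment, 20 of 56 genes had a limma p under 0.05, against 27.7% of all genes. By array, 16 Rab genes were negative on all 5 arrays, where 13.2% of all genes were, and 7 were positive on all 5, where 13.8% were. The 16 negative genes were spread over the classes as 4 ubiquitous, 7 restricted and 5 unclassed. The 7 positive ones were 5 ubiquitous, 0 restricted and 2 unclassed.

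Among the ubiquitous genes, those of the endoplasmic reticulum and Golgi kept narrow ratios of either sign. Rab1a and Rab1b, which direct transport from the endoplasmic reticulum to the Golgi, were positive on all arrays. Rab1a had 0.0237, 0.00635, 0.0158, 0.0749 and 0.00134 on replicates 1 to 5, with replicate 4 the highest, and a mean of 0.0244 ± 0.0295 (SD, n = 5; limma adjusted p = 0.299). Rab1b had a mean of 0.0457 ± 0.0203 and was also highest on replicate 4, at 0.0773. Rab2a and Rab18 were negative on all arrays. Rab2a, a Golgi tethering GTPase, had -0.0148, -0.0274, -0.0223, -0.0159 and -0.0471, and its SD of 0.0131 was the smallest of all Rab probes. Rab18, found on the endoplasmic reticulum and lipid droplets, had -0.0215, -0.0418, -0.0321, -0.0543 and -0.0572. Its mean was -0.0414 ± 0.0150, 1.10-fold if log10, with a limma adjusted p of 0.0699. Rab33b, a Golgi member with a part in autophagy, stood apart from this group with an SD of 0.143. It was listed at exactly 0 on replicate 1 and had 0.235 on replicate 2 and -0.131, -0.0785 and -0.0555 on the others.

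Early endosome members were close to 0. Rab5a, which drives fusion of early endosomes, had -0.0276, 0.00328, -0.0197, 0.00840 and -0.0101, on either side of 0. Its mean was -0.00913 ± 0.0151 (SD, n = 5), and the limma 95% interval was 0.930 to 1.03 in folds if log10. Rab5c, its close relative, had a mean of -0.00429 ± 0.0201. Rab21, which takes part in integrin traffic, was negative on every array at -0.0264, -0.0171, -0.00210, -0.0162 and -0.0378, with an SD of 0.0132. Rab22a was wider, with a mean of 0.0279 ± 0.0643.

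Recycling members were mostly positive. Rab11a, which returns cargo from the recycling endosome, had 0.00463, 0.0289, -0.00287, 0.0218 and 0.0519. That is 4 positive arrays and 1 just below 0, with a mean of 0.0209 ± 0.0215 (SD, n = 5; limma adjusted p = 0.272). Its relative Rab11b was positive on all arrays with a mean of 0.0611 ± 0.0278 (limma adjusted p = 0.0696). Rab4a and Rab35, both of fast recycling, were positive on all arrays as well, with means of 0.0383 ± 0.0282 and 0.0295 ± 0.0194. Rab14 had a mean of -0.0405 ± 0.0594 and was negative on 4 of 5 arrays.

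Late endosome and lysosome members differed in spread more than in mean. Rab7, which governs late endosome maturation and fusion with lysosomes, had -0.00343, -0.00289, 0.0126, 0.0427 and 0.00441. The mean was 0.0107 ± 0.0191 (SD, n = 5), with a limma 95% interval of 0.967 to 1.09 in folds if log10. Rab9, which returns mannose 6-phosphate receptors to the Golgi, had 0.115, 0.126, 0.0540 and 0.0724 on replicates 1 to 4 but -0.269 on replicate 5. With 1 array of the other sign its mean was 0.0197 ± 0.164, the largest SD of the ubiquitous genes. Rab24, linked to autophagy, had a mean of 0.0450 ± 0.0512.

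Members of post-Golgi exocytosis were of either sign. Rab8a, which carries vesicles from the Golgi to the plasma membrane and the cilium, had 0.0162, -0.0334, 0.00427, -0.0182 and 0.0600, and a mean of 0.00577 ± 0.0359 (SD, n = 5; limma adjusted p = 0.830). Rab8b had the highest mean of the ubiquitous genes, at 0.0719 ± 0.0691, with 1 negative array. Rab10, which brings the glucose transporter GLUT4 to the surface of fat cells, was negative on all arrays with a mean of -0.0372 ± 0.0196. Rab12 had 3 probes that disagreed and is described with the other gene of several probes.

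Secretory members ran from tight to wide genes. Rab3a, b, c and d are the GTPases of synaptic vesicles and secretory granules. Rab3d had 0.0201, 0.0679, -0.00738, 0.00357 and 0.0235, with a mean of 0.0215 ± 0.0288 (SD, n = 5; limma adjusted p = 0.336). Rab3a had 0.0984, -0.0314, 0.000666, -0.0418 and 0.149, on either side of 0, and a mean of 0.0349 ± 0.0843 (limma adjusted p = 0.520). Rab3b averaged 0.00668 ± 0.0577. Rab3c was the widest, with an SD of 0.192, the largest of all Rab genes. It had 0.0116 on replicate 1, was listed at exactly 0 on replicate 3, and had -0.439, -0.273 and -0.242 on replicates 2, 4 and 5, with a limma adjusted p of 0.199.

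The Rab27 pair and Rab37 were on the negative side. Rab27a, which docks lytic granules and melanosomes at the plasma membrane, had -0.00758, -0.0402, -0.137, -0.0445 and -0.152. It was negative on all arrays, with a mean of -0.0763 ± 0.0642 (SD, n = 5; limma adjusted p = 0.153). Rab27b, which serves secretory granules, had 0.00198, 0.00231, -0.272 and -0.0984 on replicates 1 to 4 and was listed at exactly 0 on replicate 5, so its mean of -0.0733 rested on replicates 3 and 4. Rab37, found on secretory granules of mast cells, was the tightest restricted gene, at -0.0403 ± 0.0186 and negative on all arrays.

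Apart from Rab25, the epithelial members were Rab19, with a mean of -0.122 ± 0.117 (SD, n = 5) and all arrays negative, and Rab17, which acts in polarised epithelial cells, with -0.0640 ± 0.0646. All 3 epithelial means were negative.

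Members listed as neuronal ran both ways. Rab6b, the neuronal form of the Golgi GTPase Rab6, was negative on all arrays with a mean of -0.0836 ± 0.0412 (SD, n = 5; limma adjusted p = 0.0707). Rab15 averaged -0.000325 ± 0.0932, and Rab9b 0.0810 ± 0.130. Rab33a was at -0.0508 to 0.0297 on replicates 1 to 4 and at 0.245 on replicate 5. Rab39b was listed at exactly 0 on replicates 2, 3 and 4, at -0.0104 on replicate 1 and at 0.222 on replicate 5. Rab39 was listed at 0 on replicates 2 and 5 and at 0.253 on replicate 4.

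Melanosome members had some of the largest spreads. Rab38, which brings pigment enzymes to melanosomes, had -0.205, -0.340, 0.0541 and -0.0163 on replicates 1 to 4 and was listed at exactly 0 on replicate 5, with a limma adjusted p of 0.365. Rab32, its close relative, had -0.129, 0.247, 0.00310 and 0.293 on replicates 1, 2, 4 and 5 and was listed at 0 on replicate 3. Their signs on replicate 2 were opposite. Of the members listed as immune, Rab44 was negative on all arrays at -0.0368 ± 0.0316 (SD, n = 5), and Rab7b ran from -0.168 to 0.273.

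Among the unclassed genes, Rab40b and Rab2b were the lowest and Rab29 the highest. Rab40b, whose family carries a SOCS box that binds ubiquitin ligase subunits, had -0.194, -0.354, -0.133, -0.0333 and -0.156, all negative, and a mean of -0.174 ± 0.117 (SD, n = 5; limma adjusted p = 0.103). Its relative Rab40c was also negative on all arrays, with a much smaller spread, at -0.0536 ± 0.0202 (limma adjusted p = 0.0616). Rab2b and the Golgi member Rab30 were negative on all arrays too, with means of -0.146 ± 0.0943 and -0.102 ± 0.0457.

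Rab29, a partner of the kinase LRRK2, had 0.360, -0.0101, 0.0670 and 0.212 on replicates 1 to 4 and was listed at exactly 0 on replicate 5. Its mean of 0.126 thus rested mainly on replicates 1 and 4. Rab43, of the Golgi, had 0.152, 0.106, 0.0501, 0.0103 and 0.122, all positive, and a mean of 0.0882 ± 0.0573 (SD, n = 5; limma adjusted p = 0.102). Rab42 had -0.235, 0.163, -0.000197, 0.00841 and -0.219, with no common sign and an SD of 0.169. Of the others, Rab4b, Rab20, Rab23, Rab31 and Rab34 had means from -0.0712 for Rab31 to 0.0782 for Rab20, and none had 1 sign on all arrays.

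**Figure D2:**
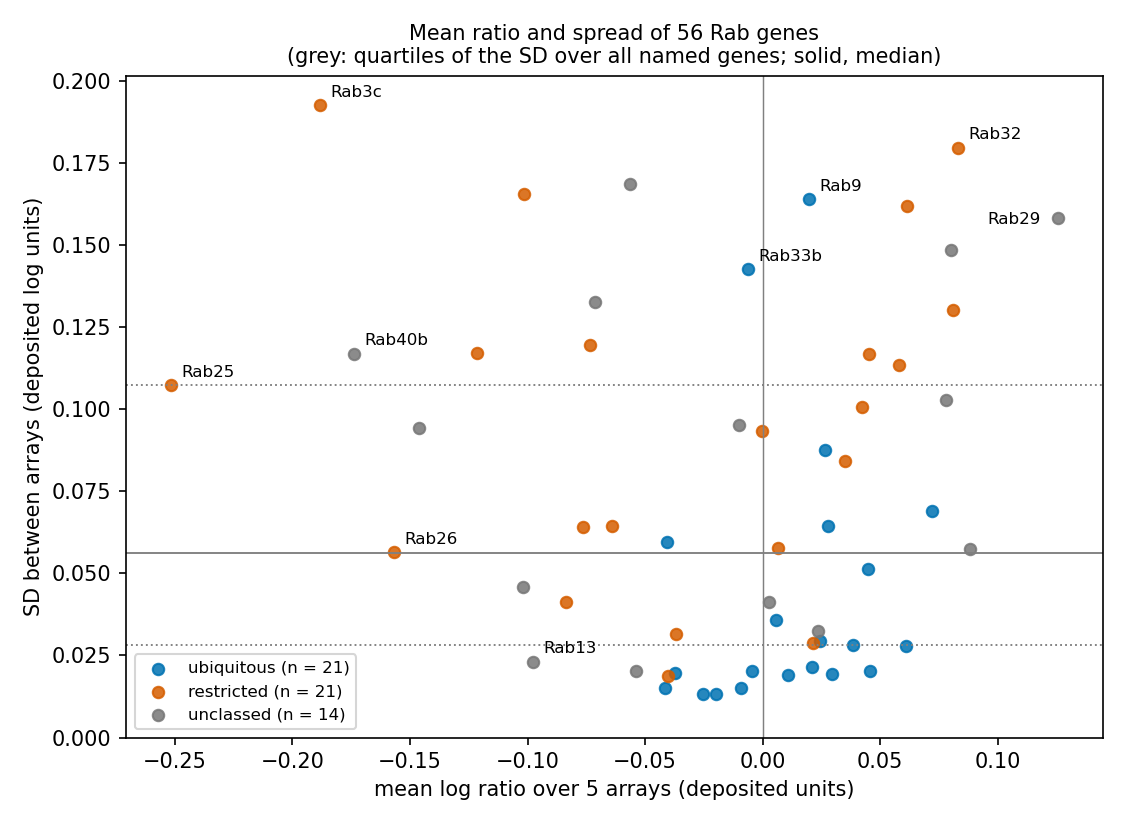
Mean log ratio over 5 arrays (horizontal axis, deposited units) against the SD between arrays (vertical axis) of the 56 Rab genes, coloured by class. Grey lines are the quartiles of the SD over all named genes, with the solid line at the median of 0.0563. Rab13 lies far left for its small SD of 0.0231, and most ubiquitous genes lie below the solid line.

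Ubiquitous Rab genes varied less between arrays than restricted ones. The median between-array SD was 0.0278 over the 21 ubiquitous genes and 0.101 over the 21 restricted genes, 3.61 times as much in the restricted class, with 0.0947 over the 14 unclassed genes and 0.0563 over all named genes. The ranges overlapped, at 0.0131 to 0.164 for ubiquitous and 0.0186 to 0.192 for restricted genes. Of the ubiquitous genes 6 of 21 lay above the median SD of all genes, against 17 of 21 restricted genes. These are descriptions of a comparison of genes, which are not replicates, and no test was made of it. The classes were not set blind to these data. By geometric means the SDs were 0.0325 and 0.0825, a ratio of 2.54. Single arrays bore on the ratio of medians, which was 4.37, 2.89, 2.97, 5.19 and 2.75 with replicates 1 to 5 left out in turn. Without replicate 5 the medians were 0.0230 and 0.0631.

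Array by array, the median size of the log ratio was 0.0215, 0.0418, 0.0229, 0.0439 and 0.0519 on replicates 1 to 5 for ubiquitous genes. For restricted genes it was 0.0283, 0.0402, 0.0508, 0.0560 and 0.127. The restricted class was farther from 0 on 4 of 5 arrays, by the most on replicate 5, and was slightly closer to it on replicate 2. Over the 5 arrays, ubiquitous genes beyond 1.5-fold numbered 0, 1, 0, 0 and 2, against 1, 7, 2, 3 and 6 restricted genes.

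**Figure D3:**
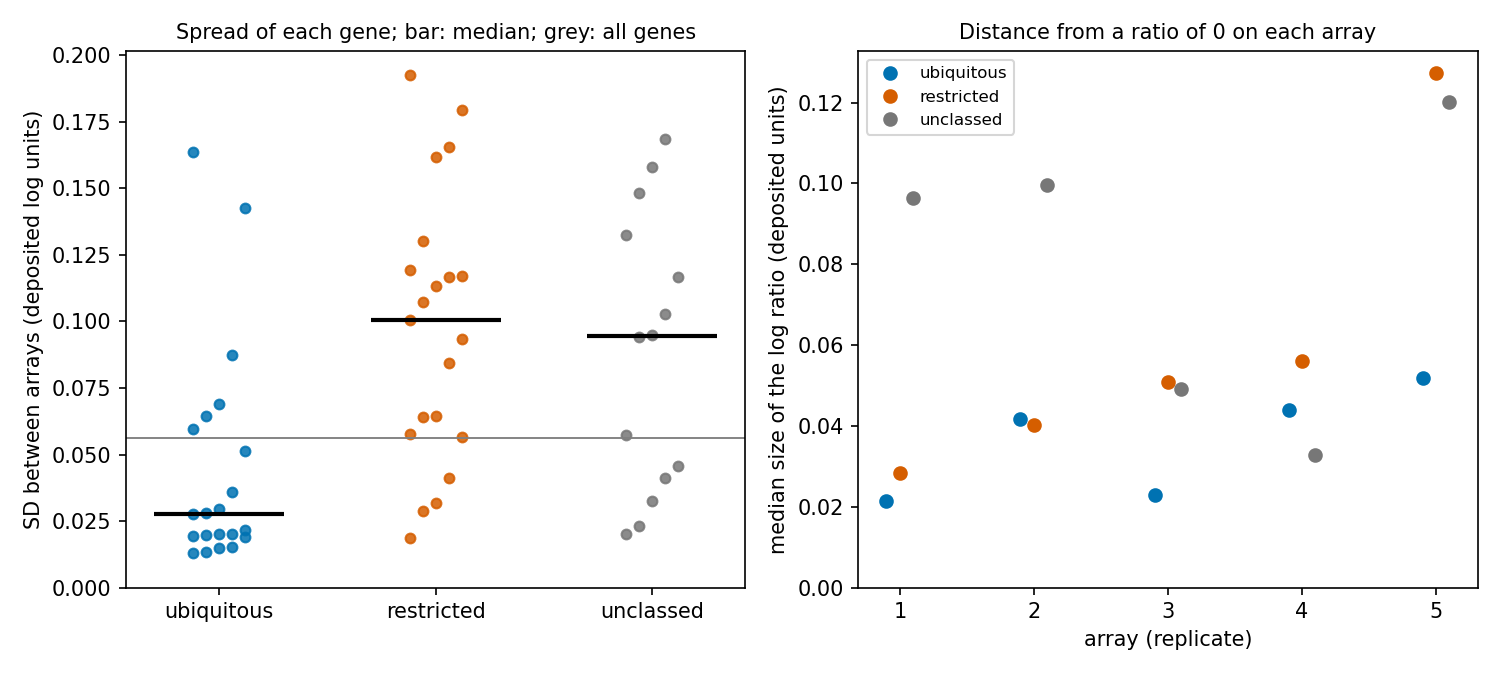
Left, the SD between arrays (deposited log units) of each Rab gene by class, with black bars at the class medians of 0.0278 for ubiquitous, 0.101 for restricted and 0.0947 for unclassed genes, and a grey line at the median of all named genes. Right, the median size of the log ratio of each class on each array, where restricted genes reach 0.127 on replicate 5.

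Exact zeros were also placed unequally. On 1 array or more, an exact 0 was listed for a probe of 1 of 21 ubiquitous genes (Rab33b) and 8 of 21 restricted genes, against 2 of 14 unclassed genes and 25.3% of all named genes. The restricted genes were Rab3c, Rab7b, Rab9b, Rab27b, Rab32, Rab38, Rab39 and Rab39b. With the probes that held a zero left out, the median SDs were 0.0247 over 20 ubiquitous and 0.0642 over 13 restricted genes, a ratio of 2.60. What a zero stands for is not stated, and the table holds no signal intensity, so the part of dim spots in the class difference was not tested.

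In sign the classes leaned apart by less than the spread of their members. The median mean ratio was 0.0197 for ubiquitous and -0.0368 for restricted genes, with means of -0.0414 to 0.0719 and of -0.252 to 0.0829. The ubiquitous median was 0.00683 without replicate 5, 0.0118 without replicate 4, 0.00819 with a robust fit, 0.0108 with array weights and 0.0107 with the tightest probe of each gene. The class median was higher for ubiquitous genes on every array, by 0.0150, 0.0377, 0.00528, 0.0567 and 0.0227 on replicates 1 to 5. No array has its dyes swapped, so a dye effect on single genes and any other cause of a lasting ratio cannot be told apart.

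Related genes shared a sign in some families and not in others. The Rab1, Rab4, Rab8 and Rab11 pairs had means of 1 sign, as did Rab2a and Rab2b, Rab5a and Rab5c, Rab7 and Rab7b, Rab9 and Rab9b, Rab27a and Rab27b, Rab39 and Rab39b, and Rab40b and Rab40c. These are signs of means only, and Rab5a, Rab5c, Rab7, Rab7b, Rab9, Rab39 and Rab39b among others had arrays on either side of 0. How often unrelated genes share a sign was not counted. The 4 Rab3 genes spanned -0.188 to 0.0349, and Rab32 and Rab38 had opposite signs, as did Rab33a (0.0452) and Rab33b (-0.00608). Across the 56 Rab genes, the correlation of ratios between 2 arrays had a median of 0.387 over the 10 pairs of arrays (0.239 to 0.429), against 0.361 across all named genes (0.266 to 0.421). For restricted genes the median was 0.380 (0.0732 to 0.566), and for ubiquitous genes it was 0.115 (-0.270 to 0.629), over 21 genes each. These correlations are across genes on arrays of 1 cell line with the same dye order, and genes are not independent replicates.

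Rab12 and Rab36 were measured by several probes, which disagreed within each gene. The first Rab12 probe (feature 7271) had 0.0950, 0.214, 0.0289, 0.0893 and 0.316 on replicates 1 to 5, all positive. Feature 8325 had -0.0810, -0.211, -0.0511, -0.0790 and 0.218. Feature 22298 had -0.0515, -0.0139, -0.0239, -0.0627 and 0.0152. The first probe averaged 0.149 ± 0.115 (SD, n = 5; limma adjusted p = 0.129), the highest mean of any Rab probe, while the other probes were negative on replicates 1 to 4 and positive on replicate 5, with means of -0.0409 ± 0.157 and -0.0273 ± 0.0309. All 3 were highest on replicate 5. The gene average of 0.0268 ± 0.0875 describes none of them.

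For Rab36, which binds the lysosome-positioning adaptor RILP, feature 2883 was listed at exactly 0 on replicates 1, 3, 4 and 5 and at 0.616 on replicate 2. That was the largest single ratio of any Rab probe. Feature 5617 of the same gene had 0.0295, 0.0756, 0.0325, 0.0120 and 0.0380, positive on all arrays with a mean of 0.0375 ± 0.0234 (SD, n = 5; limma adjusted p = 0.121). The gene's SD of 0.148 thus came from 1 array of 1 probe.

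**Figure D4:**
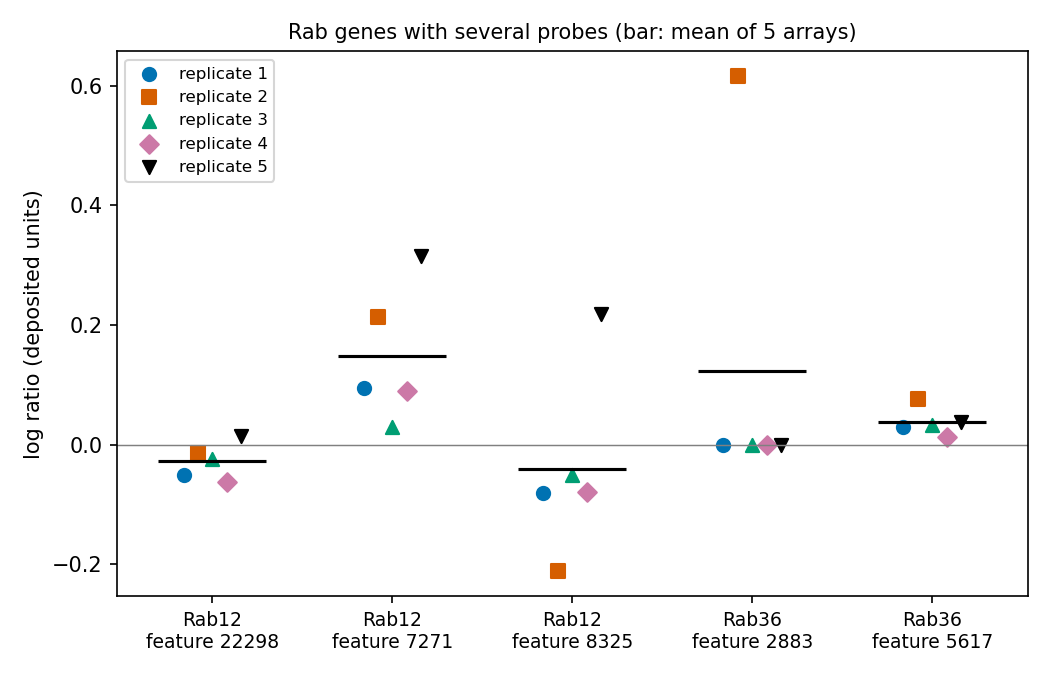
Log ratio (deposited units) on each of the 5 arrays for the 3 probes of Rab12 and the 2 of Rab36, with bars at the means. Feature 7271 of Rab12 lies above 0 on all arrays, the other Rab12 probes lie below it on 4 of 5, and feature 2883 of Rab36 is at 0 except for 0.616 on replicate 2.

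Genes of proteins that run the Rab cycle or act downstream had probes on the same arrays. Of 76 listed cycle genes 65 had a named probe, with a median mean ratio of 0.0156 and 37 positive and 27 negative means. The mean of Rabgef1 was exactly 0. Limma made 2 calls among the cycle genes after adjustment over all genes, 1 of each sign. Of 47 listed effectors 38 had a named probe, with a median of -0.00350 and 1 negative call. Both counts are near the background, in which 2.45% of all genes were called and 1.40% were called negative. All 3 called genes had a sign shared by the 5 arrays. Sgsm1, a GTPase-activating protein, had -0.236, -0.158, -0.169, -0.203 and -0.227 and a mean of -0.199 ± 0.0344 (SD, n = 5; limma adjusted p = 0.0173). Rabac1, a Golgi protein that helps place prenylated Rabs on membranes, had 0.0774, 0.0920, 0.0786, 0.105 and 0.0718 and a mean of 0.0849 ± 0.0134 (limma adjusted p = 0.0283). Rilpl2, a relative of RILP that acts at the cilium, had -0.244, -0.141, -0.0873, -0.146 and -0.184 and a mean of -0.160 ± 0.0580 (limma adjusted p = 0.0486). None of the 3 was called when any 1 array was left out, and Rilpl2 was not called after scaling or quantile normalization.

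The steps of membrane delivery did not share a sign. Gdi2, the dissociation inhibitor that keeps Rabs soluble, averaged -0.0747 ± 0.0278 (SD, n = 5; limma adjusted p = 0.0537), and Rabggtb, the catalytic subunit of the enzyme that attaches the lipid tail to Rabs, -0.0200 ± 0.00986. Rabggta, its other subunit, averaged 0.0231 ± 0.0589. The exchange factor Rabgef1, which activates Rab5, was listed at exactly 0 on all 5 arrays. Among effectors, Rab11fip4, which binds Rab11, had the lowest mean at -0.360 ± 0.154 and was negative on every array, but did not pass (limma adjusted p = 0.0533). Eea1, the early endosome tether that binds Rab5, averaged 0.0404 ± 0.0383.

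If an unchanged gene has a mean of 0, the spread sets how small a change in a Rab gene 5 such arrays could show. On these arrays 20 of 56 Rab genes and 27.7% of all genes had an unadjusted limma p under 0.05. The folds below leave such lasting ratios out of account, so the stated alpha does not hold for genes that have one. With a two-sided test of a gene's mean against 0, a power of 0.8 and an alpha of 0.05 without adjustment, the smallest detectable fold had a median of 1.27 over the Rab genes if log10, against 1.24 over all named genes. It was 1.11 for ubiquitous genes and 1.48 for restricted genes. By this calculation from the spread alone, a 1.5-fold change was within reach for 19 of 21 ubiquitous and 11 of 21 restricted genes. The same held for 9 of 14 unclassed genes and 74.0% of all named genes. Exact zeros entered these spreads as if measured, and 25.3% of all named genes held one. A gene listed at 0 on all 5 arrays, as Rabgef1 was, thus counts as within reach. Rab39b, listed at 0 on 3 arrays, is among the 11 restricted genes and sets their median of 1.48. The lowest detectable folds of Rab genes belonged to Rab2a and Rab21, at 1.05 each, and the highest to Rab3c at 2.11 and Rab32 at 2.00. If the values are log2, the class medians are 1.03 for ubiquitous and 1.12 for restricted genes.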

How the data were processed

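The deposited table holds, per the file headers, 1 value for each numbered feature and each of 5 arrays. The authors' values have the form of log ratios (both signs, many exact zeros, a median of 0 on each array). The deposited values were read as log10 because the labels name Agilent's labelling protocol and Agilent's software writes log10 ratios; the values themselves do not separate log10 from another base, and every printed fold rests on that reading. Image quantification, background correction and dye normalization are steps not given in the sources used here. It has 0 columns from outside the series, no slide or scan date, and no signal intensity, so no batch could be tested and the number of arrays limits the precision.

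Gene names came from the platform's annotation, for the 17786 probes with 1 symbol. On the log2 scale, each feature's mean was tested against 0 with limma 3.58.1 (lmFit and eBayes, intercept only; R 4.3.3), with Benjamini-Hochberg adjustment over all 20868 probes or, after averaging probes of 1 symbol, over all 16504 genes, at a threshold of 0.05. Results are printed in deposited units as mean ± SD. Adjusted p-values and intervals of single Rab genes are from the probe fit, and those of cycle and effector genes from the gene fit. Detectable folds used scipy 1.17.1 and were added after the data were seen. On simulated data with the real spreads of 20868 probes, the probe fit recovered 49 of 100 probes shifted 1.5-fold and 69 of 100 shifted 2-fold, with 10 false calls. The simulated noise was normal, centred on 0 and independent between arrays, so it held no lasting ratio of single probes. On the real arrays 713 of 20868 probes were called, and the simulation cannot give the rate of false calls there.

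The members, classes and gene lists were chosen with earlier results of these data known. Genes given with all 5 values were the called Rab probes, the 4 highest and 4 lowest means, the 4 largest and 4 smallest SDs, 10 fixed genes, Rab genes with several probes or with 3 or more exact zeros, and the called pathway genes. Rab9 and Rab33b, also given in full, and the values of other genes were chosen after they were seen. Alternatives tried were another log base, array weights, a robust fit, quantile normalization, scaling, centring, exact zeros as missing, probes without zeros, the tightest probe per gene, and each array left out. No probe, guide or protein sequence was used here.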

Additional observations from a re-analysis of the deposited data

Results flagged for a closer look

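Of the 59 Rab probes, 5 had 1 array far from the other 4, by a gap of more than 0.710 of the probe's range. For normal values about 1 probe in 20 would do so, a rate that does not apply to probes with several exact zeros. The share over all probes was not counted, so the number is not a result about Rab probes. Rab31 (feature 4984) was at 0.158 on replicate 3 and negative on the other arrays. Rab33a (feature 20208) was at 0.245 on replicate 5, Rab39b (feature 15209) at 0.222 on replicate 5, and Rab9 (feature 2194) at -0.269 on replicate 5. Rab39b was listed at exactly 0 on replicates 2, 3 and 4. Rab36 (feature 2883) was at 0.616 on replicate 2 and listed at 0 on the others. By array these were 3 on replicate 5 and 1 each on replicates 2 and 3.

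By the same measure, the median over all Rab probes stood apart on replicate 4, at -0.0159. The median size of the log ratio of restricted Rab genes stood apart on replicate 5, at 0.127. Over all probes, replicate 5 had the largest share of exact zeros, 20.8%, and over Rab probes it had 6 of 59.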

How the results depend on the processing

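No paired analysis was possible because all arrays form 1 group. The number of Rab genes called, 2 of 56, became 16 with a robust fit and 4 with array weights, where 19.8% and 7.22% of all genes were called. With probes that held an exact zero left out, it was 5 of the 46 Rab genes that remained, where 8.38% of 12761 genes were called. The numbers of Rab probes called were likewise 16, 4 and 5, and the shares of all probes under these settings were not counted. Rab13 and Rab26 were among the genes called under each of these settings. For regulators and effectors (65 cycle genes and 38 effectors), the count of 3 became 23, 9 and 8 under these settings. The count of 8 is out of fewer genes, since some had no probe without a zero. With exact zeros as missing it was 5, where 2.59% of 15186 genes were called. With any 1 array left out, limma called 0 Rab probes, 0 Rab genes, 0 regulators or effectors and 3 to 64 of all 16504 genes after adjustment. At an unadjusted limma p under 0.05 there were 16 to 21 Rab probes, 15 to 19 Rab genes and 23 to 32 regulators or effectors. The share of all genes at that unadjusted threshold was not counted with arrays left out. With all 5 arrays it was 27.7%, against 20 of 56 Rab genes. The median mean ratio over Rab probes, -0.000325, was 0.00654 after scaling and 0.00737 after quantile normalization, and ran from -0.00763 to 0.00267 with arrays left out, so it had no settled sign. The median SD over Rab probes, 0.0594, was 0.0435 among probes with no exact zero and 0.0431 to 0.0643 with arrays left out. The difference of median SDs, ubiquitous minus restricted, was -0.0727, and was -0.0395 among probes with no exact zero and -0.0852 to -0.0402 with arrays left out. It was negative, and the difference of median mean ratios positive (0.0368 to 0.0606), under every alternative run for them. Robust and weighted fits give no SD of their own and were not run for it. Of the 28 named probes, 3 changed sign with an array left out (Rab8a, Rab39b and feature 8325 of Rab12). None of them was called in the fit of the main results, but a robust fit called feature 8325 (limma adjusted p = 0.0364). The unknown brightness of spots limits what the spread of a probe can be set against.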
